A study of Mus musculus with 6 samples.

Results

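Sinusoidal endothelial cells line the capillaries of the liver, and the 8 genes described here, Clec4g, Lyve1, Stab1, Stab2, Kdr, Fcgr2b, Eng and Pecam1, are widely used as their markers. The genes were chosen by name, and all 8 were present among the 8390 genes of the deposited table of liver expression values. RNA had been sequenced from whole livers of C57BL/6 mice, a common inbred strain. The LV group held 3 samples from mice that had received 3e8 transducing units of a lentiviral vector, a gene-delivery particle that cannot replicate, into a vein, and their livers were collected 4 h later. The untreated group also held 3 samples, and no mock-injected animals are among the samples, so an effect of the vector cannot be told apart from one of the injection. The study addresses the innate response of the liver to such vectors. The labels give no age or genotype beyond the strain, and they do not say what the vector carried or whether each replicate is a separate animal, so p-values measure no more than the spread between these livers.

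Liver sinusoidal endothelium is thin, perforated by open pores and without a continuous basement membrane, so plasma reaches the hepatocytes almost directly. Its cells are among the most active scavengers of the body: they take up hyaluronan, modified lipoproteins, immune complexes and small particles, viruses included, through a set of endocytic receptors. They also carry receptors for VEGF and for ligands of the BMP family, which hold them in their specialised state. Several of the 8 genes are not exclusive to these cells. Stab1 and Fcgr2b are also known from macrophages, Fcgr2b from B cells, Lyve1 from lymphatic endothelium, and Pecam1 from platelets, leukocytes and all other endothelium.

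Promoters are shown for members at both ends of the negative fold changes, and 6 of the 8 had an entry in the RefSeq promoter table (build GRCm38.p6); Lyve1 and Pecam1 had none. Printed below are the 250 bases before the start of 4 members: Clec4g, whose fold change was the most negative, Fcgr2b, and the paralogs Stab1 and Stab2, whose fold changes were -0.07 and -0.45 on the log2 scale. All 4 lie on the minus strand, at chr8:3720652-3720901, chr1:170976072-170976321, chr14:31168642-31168891 and chr10:87007943-87008192, and are written 5′ to 3′ in the direction of transcription. Capitals mark the core of the motif bound by ETS factors, GGAA, or its reverse complement; ETS proteins such as Erg and Fli1 are known regulators of endothelial genes.
Clec4g: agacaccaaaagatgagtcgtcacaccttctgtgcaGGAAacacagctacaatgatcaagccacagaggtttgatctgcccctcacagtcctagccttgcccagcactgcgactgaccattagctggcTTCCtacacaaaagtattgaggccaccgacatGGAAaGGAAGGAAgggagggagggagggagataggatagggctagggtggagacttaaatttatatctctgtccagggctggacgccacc
Fcgr2b: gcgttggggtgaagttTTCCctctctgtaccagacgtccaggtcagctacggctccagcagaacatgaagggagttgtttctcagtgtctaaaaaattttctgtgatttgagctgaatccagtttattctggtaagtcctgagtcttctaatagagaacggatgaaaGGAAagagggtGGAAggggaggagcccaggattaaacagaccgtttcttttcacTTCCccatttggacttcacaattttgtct
Stab1: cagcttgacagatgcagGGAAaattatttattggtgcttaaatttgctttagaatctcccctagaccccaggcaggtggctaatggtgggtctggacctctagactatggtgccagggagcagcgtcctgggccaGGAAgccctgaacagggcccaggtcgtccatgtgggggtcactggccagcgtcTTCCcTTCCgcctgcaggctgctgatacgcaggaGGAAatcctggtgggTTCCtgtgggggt
Stab2: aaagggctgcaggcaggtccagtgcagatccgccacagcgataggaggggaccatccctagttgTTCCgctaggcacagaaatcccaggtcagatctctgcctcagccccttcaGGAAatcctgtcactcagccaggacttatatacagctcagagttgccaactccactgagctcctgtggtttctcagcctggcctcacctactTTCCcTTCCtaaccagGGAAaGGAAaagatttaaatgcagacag

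On either strand, the ETS core occurred 5 times in the Clec4g promoter, 4 times in Fcgr2b, and 6 times in each of Stab1 and Stab2. It is a short motif, found in 93.4% of the 27025 promoters searched. The core GATA, bound by Gata4, a factor of sinusoidal endothelium, occurred 3 times in Clec4g and once each in Stab1, Stab2 and Kdr, and in 54.1% of all promoters. The interferon-stimulated response element, searched as GAAA, any 2 bases and GAAA and found in 3.04% of promoters, and the STAT motif, searched as TTC, any 3 bases and GAA and found in 7.18%, were not matched in any of the 6 promoters. The composite of an ETS and an IRF half-site, searched as GGAA, any 2 bases and GAAA, which was added after the Fcgr2b sequence had been seen, occurred in 2.38% of promoters; Fcgr2b held 1 match, 26 to 35 bases before the start, and Stab2 held 2, at 19 to 28 and 36 to 45 bases, each overlapping the ETS cores in capitals there. A match describes the letters only and shows no binding.

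None of the 8 markers passed the test for a difference between LV and untreated livers. The test was limma on log2(value + 1), fitted over 8386 genes with Benjamini-Hochberg adjustment, in which 4.63% of genes passed an adjusted p under 0.05, 3.76% higher and 0.87% lower in LV livers. At an unadjusted p under 0.05, 1 member passed, Lyve1, against 19.5% of all genes. The fold changes nevertheless ran from -1.11 for Clec4g to 1.01 for Lyve1 on the log2 scale, 6 of 8 were negative, and their median was -0.42; among all genes 58.1% were negative and the median was -0.07. In bulk tissue, fewer cells of a type and less RNA per cell cannot be told apart. Values are given in the deposited unit, which no label names, and they appear to be scaled for depth and for transcript length and rounded to whole numbers, so that steps of 1 are coarse for Lyve1, Kdr and other genes at low values.

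A pair of libraries stands apart in genes outside the markers. Elovl3, a male-biased fatty acid elongase, had 169 in LV replicate 3 and 159 in untreated replicate 2, and at most 4 in the others. Cyp4a12a, another sex-biased gene, had 186 and 136 in these 2 libraries and at most 3 in the others. Cyp2b9, also sex-biased, went the other way, with 8 and 5 against 121 to 157. Whether animals of both sexes stand in each group was not tested. Without both libraries the fit again called 0 of the 8 markers (1.23 for Lyve1 and -1.32 for Clec4g on the log2 scale; lowest adjusted p = 0.243, limma).

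The stabilins are large scavenger receptors that clear hyaluronan and modified proteins from blood. Stab2, the main hyaluronan clearance receptor of the sinusoid, had values of 9, 13 and 15 in LV livers and 20, 17 and 14 in untreated livers. Only the lowest untreated liver reached into the LV range. The means were 12.3 ± 3.06 in LV livers and 17 ± 3 in untreated livers (SD, n = 3 each), a log2 fold change of -0.45 ± 0.22 SE (limma adjusted p = 0.325). Its paralog Stab1 had 10, 12 and 12 in LV livers and 14, 12 and 10 in untreated livers, so the LV values lay within the untreated range. The fold change of Stab1 was -0.07, with a 95% interval from -0.44 to 0.30, and its sign turned when LV replicate 1 or untreated replicate 1 was left out. Whether the 2 paralogs differ in response was not tested.

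Clec4g, a C-type lectin also called LSECtin that binds glycans on viruses and leukocytes, showed the most negative fold change of the 8. It had 11, 43 and 33 in LV livers, against 55, 54 and 58 in untreated livers. Every LV value lay below every untreated one, as for 11% of all genes. The LV livers varied much more among themselves, with a mean of 29 ± 16.4 in LV livers and 55.7 ± 2.08 in untreated livers (SD, n = 3 each), or 52.1% of the untreated mean. The log2 fold change was -1.11 ± 0.49 SE (limma adjusted p = 0.290), and the interval from -2.35 to 0.13 includes 0. LV replicate 1 contributed much of it: without that library the fold change was -0.55 (limma adjusted p = 0.191).

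Lyve1, a membrane receptor for hyaluronan related to CD44, went the other way. It had 10, 5 and 5 in LV livers, against 3, 3 and 2 in untreated livers. All LV values lay above all untreated ones, as for 8.65% of genes. The log2 fold change was 1.01 ± 0.28 SE, with an interval from 0.31 to 1.72 (limma adjusted p = 0.131). Lyve1 had the lowest adjusted p of the members, and it reached 0.0642 with median-of-ratios scaling, the lowest over 14 alternative settings, and 0.294 without untreated replicate 3, the highest. LV replicate 1, the library with the lowest Clec4g, had the highest Lyve1; without it the fold change was 0.72. The differences in Lyve1 are of 2 to 8 units of a rounded value.

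Fcgr2b, the inhibitory receptor for the Fc part of IgG, through which the sinusoid removes small immune complexes, had 13, 30 and 33 in LV livers and 35, 35 and 30 in untreated livers. A single library, LV replicate 1, stood below the other values, and the other LV livers lay within the untreated range. The log2 fold change was -0.48 ± 0.36 SE (limma adjusted p = 0.510), and it was -0.08 without LV replicate 1.

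**Figure D1:**
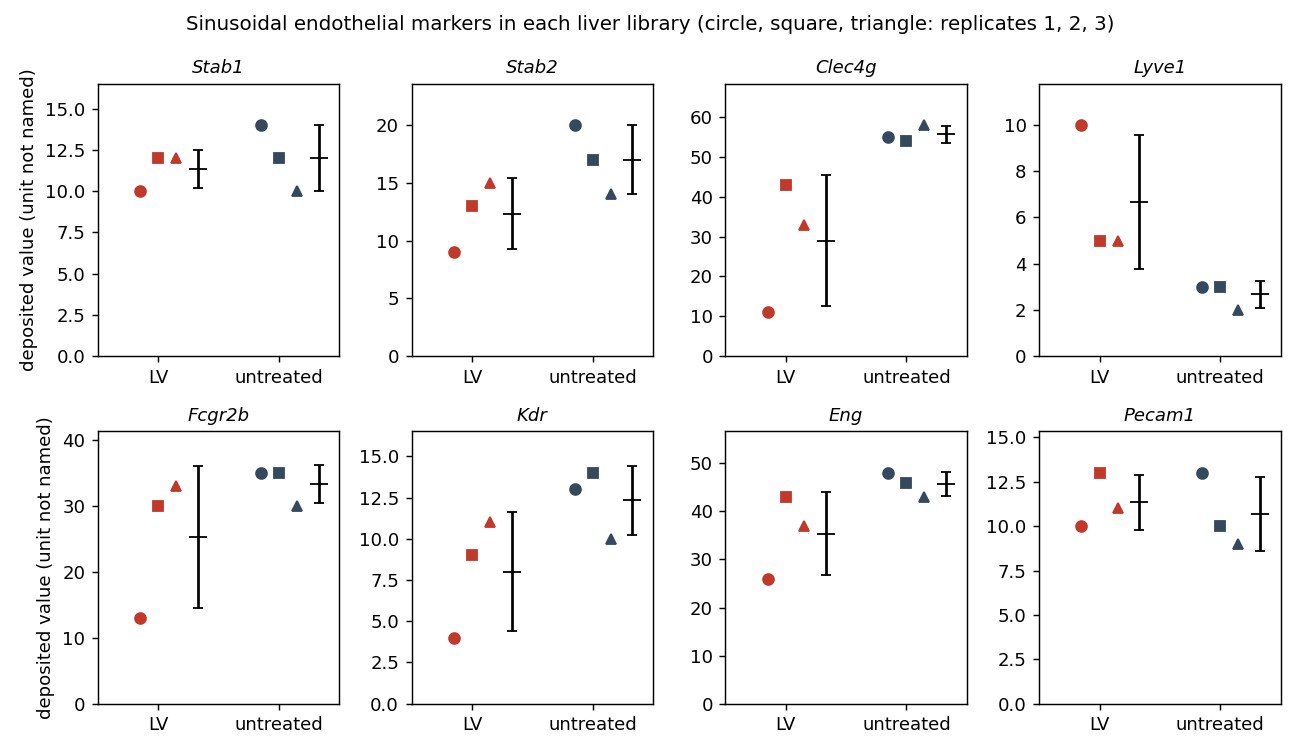
Deposited value (unit not named, axes from 0) of each of the 8 markers in the 3 LV and 3 untreated livers, with circles, squares and triangles for replicates 1, 2 and 3 and the mean ± SD beside each group. Clec4g is lower in each LV liver (11 to 43) than in any untreated liver (54 to 58), Lyve1 is higher (5 to 10 against 2 to 3), and the other 6 genes overlap between groups.

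Kdr, the main signalling receptor for VEGF, had 4, 9 and 11 in LV livers and 13, 14 and 10 in untreated livers. One untreated value lay inside the LV range. The means were 8 ± 3.61 in LV livers and 12.3 ± 2.08 in untreated livers (SD, n = 3 each), and the log2 fold change was -0.65 ± 0.36 SE (limma adjusted p = 0.367), or -0.27 without LV replicate 1.

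Eng, or endoglin, a co-receptor for BMP and TGF-beta ligands, had 26, 43 and 37 in LV livers, against 48, 46 and 43 in untreated livers. The groups met at 43. The log2 fold change was -0.39 ± 0.19 SE (limma adjusted p = 0.326), with an interval from -0.87 to 0.09, and -0.19 without LV replicate 1. Pecam1, an adhesion molecule of the cell junctions, had 10, 13 and 11 in LV livers and 13, 10 and 9 in untreated livers, with full overlap. Its fold change was 0.09 (95% interval -0.33 to 0.50), and it turned to -0.01 without LV replicate 2 and to -0.02 without untreated replicate 3. With 3 livers against 3, an exact two-sided permutation test of a single gene cannot give a p below 0.1; Clec4g and Lyve1 gave that value, and the other 6 genes gave 0.2 to 1.

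**Figure D2:**
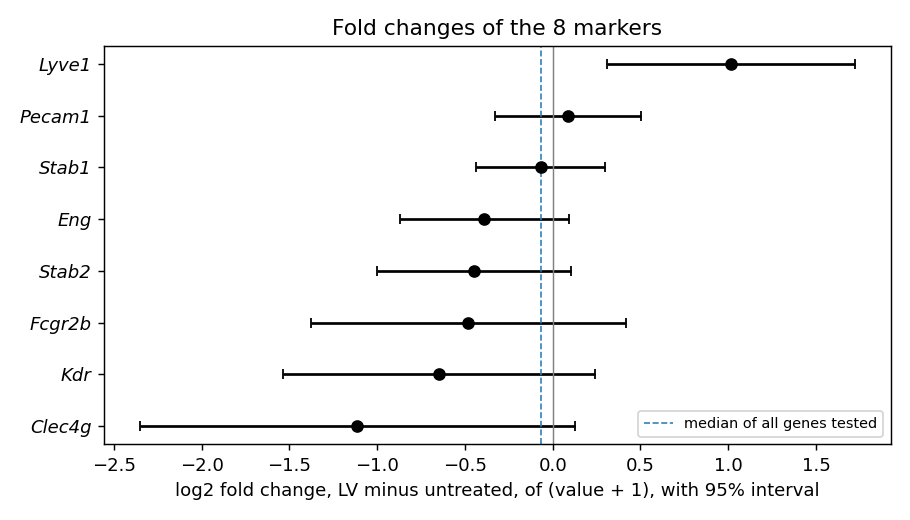
Log2 fold change (LV minus untreated, of value + 1) of each marker with its 95% interval from limma, sorted from high to low; the dashed line is the median of all genes tested (-0.07). The intervals of 7 genes include 0 and that of Lyve1 runs from 0.31 to 1.72 before any adjustment over genes.

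The spread among the LV livers was wider than among the untreated livers for most members. The SD of log2(value + 1) was 0.99 in LV livers and 0.05 in untreated livers for Clec4g, 0.70 and 0.12 for Fcgr2b, 0.67 and 0.23 for Kdr, and 0.36 and 0.08 for Eng. Only Stab1 and Pecam1 had a smaller SD in LV than in untreated livers (0.14 against 0.22, and 0.18 against 0.25). Over all genes the median SD was 0.19 in LV livers and 0.20 in untreated livers.

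The wide spread came with 1 library. LV replicate 1 had the lowest value of the 6 libraries for 5 members, Clec4g, Stab2, Kdr, Fcgr2b and Eng, and the highest for Lyve1; it was the lowest library for 20.1% of all genes and the highest for 15.2%. Averaged over the 7 members other than Lyve1, log2 values less the mean of the untreated livers came to -0.98, -0.15 and -0.18 for LV replicates 1, 2 and 3 and 0.13, 0.03 and -0.16 in untreated replicates 1, 2 and 3. LV replicates 2 and 3 thus lay close to untreated replicate 3. Without LV replicate 1 the median fold change of the 8 members was -0.13 in place of -0.42. The deposited values of that library summed to 501640, inside the range of the others (497295 to 526009), but these sums are not read totals and the depth of the libraries is unknown.

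**Figure D3:**
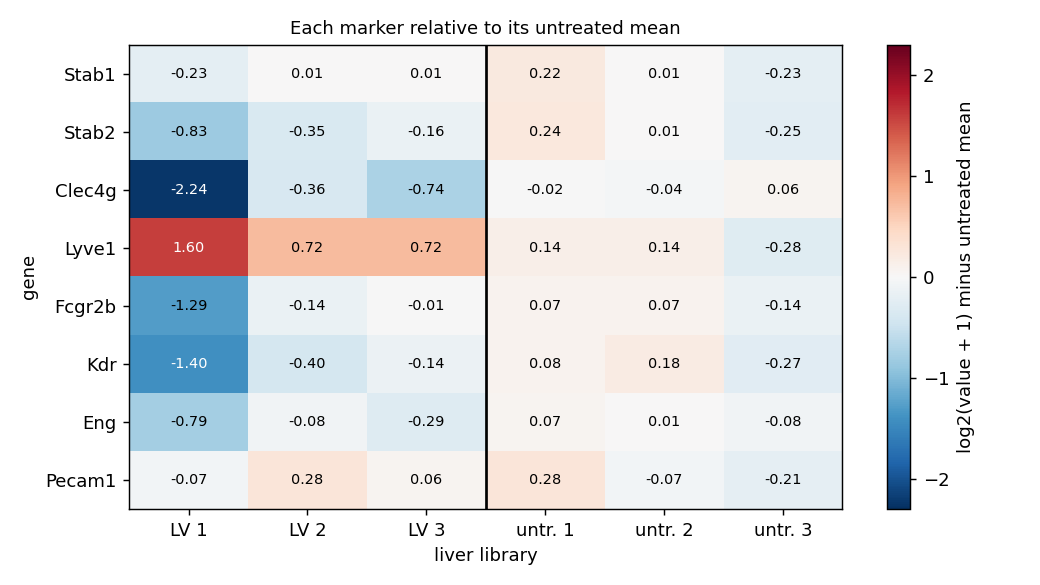
Log2(value + 1) of each marker in each library minus the mean of the untreated livers, printed in each cell; LV libraries are left of the line and untreated libraries right of it. LV replicate 1 holds the lowest values (-2.24 for Clec4g, -1.40 for Kdr, -1.29 for Fcgr2b) and the highest (1.60 for Lyve1).

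The mean profile of the 8 members over the 6 libraries was compared with those of 6760 other genes with a mean value of at least 5. That mean joins members that went opposite ways and is flatter than some of them. In LV replicate 1, relative to the untreated means, it lay at -0.66 on the log2 scale, Clec4g at -2.24 and Lyve1 at 1.60. Among the closest, by root mean square difference of centred log2 values, were 2410025L10Rik and Pigl (both 0.054), Gulo (0.055) and Vars2 (0.056). Gulo, an enzyme of vitamin C synthesis in hepatocytes of mice, had 171, 244 and 237 in LV livers and 276, 262 and 210 in untreated livers. None of these 4 genes passed the test between groups.

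Other genes known from sinusoidal endothelium were mostly on the negative side without passing the test. Of 22 listed genes 17 were in the table, of which 0 were higher, 1 was lower and 16 did not pass. Among all genes 0.87% were lower. The fold change was negative for 12 of the 17, against 58.1% of all genes, and the median was -0.38. LV replicate 1 was the lowest library for 10 of the 17, against 20.1% of all genes. The gene that passed was Ptgs1, the constitutive cyclooxygenase, with 2, 3 and 3 in LV livers and 9, 6 and 6 in untreated livers (log2 fold change -1.12 ± 0.20 SE, limma adjusted p = 0.0431); leaving out any 1 of the 6 libraries ended the call, with adjusted p values of 0.0826 to 0.138. Among the most abundant members of the list, Dnase1l3, a secreted DNase, had 16, 28 and 32 in LV livers and 29, 33 and 27 in untreated livers, and Nrp1, a co-receptor of VEGF, had 43, 54 and 69 in LV livers and 41, 54 and 40 in untreated livers. Ctsl, a lysosomal protease, had 325, 214 and 220 in LV livers and 209, 245 and 159 in untreated livers. All 3 overlapped between groups.

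Of these 17 genes, 5 had LV values wholly below the untreated ones, as for 11% of all genes: Ptgs1, which passed, and Ehd3, Mrc1, Oit3 and Maf, which did not. The last 4 were singled out after their values were seen. Ehd3, which takes part in endosome recycling, had 8, 17 and 14 in LV livers, against 38, 32 and 29 in untreated livers (log2 fold change -1.33 ± 0.28 SE, limma adjusted p = 0.0709). Mrc1, the mannose receptor, had 4, 7 and 8 in LV livers, against 12, 14 and 10 in untreated livers (-0.86 ± 0.26 SE, limma adjusted p = 0.151). Oit3, a secreted protein, had 8, 17 and 17 in LV livers, against 19, 20 and 19 in untreated livers (limma adjusted p = 0.392), and the transcription factor Maf had 4, 7 and 7 in LV livers, against 8, 9 and 9 in untreated livers (limma adjusted p = 0.272). In Ehd3 the highest LV value, 17, was well under the lowest untreated value, 29.

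Genes of endothelium in general had a median fold change near that of all genes. Of 41 listed genes 25 were in the table, with 0 higher, 2 lower and 23 that did not pass. Among all genes 0.87% were lower. The median fold change of the list was -0.04. At an unadjusted p under 0.05, 3 were higher and 5 lower, against 19.5% of all genes in either direction. LV replicate 1 was the lowest library for 4 of the 25. In 5 of the 25 all LV values lay below all untreated ones, against 11% of all genes: Erg, Calcrl, Gpihbp1, Clec14a and Ramp2. The last 2 were named after their values were seen. Clec14a had 1, 2 and 3 in LV livers, against 6, 7 and 5 in untreated livers (log2 fold change -1.27 ± 0.27 SE, limma adjusted p = 0.0734). Erg, an ETS factor of endothelial identity, had 2, 3 and 3 in LV livers and 5 in each untreated liver (log2 fold change -0.72 ± 0.13 SE, limma adjusted p = 0.0454), a call that ended when any library but LV replicate 1 was left out (adjusted p up to 0.148). Calcrl, a receptor for adrenomedullin, was listed at 1 in each LV and 2 in each untreated liver (limma adjusted p = 0.00171), so its call rests on a single step of rounding with no spread in either group. Egfl7, a secreted endothelial protein, had 39, 37 and 29 in LV livers and 33, 26 and 31 in untreated livers. Gpihbp1, which carries lipoprotein lipase across capillary walls, had 25, 22 and 26 in LV livers and 32, 27 and 40 in untreated livers (limma adjusted p = 0.252), and the sphingosine-1-phosphate receptor S1pr1 had 22, 19 and 18 in LV livers and 19, 21 and 14 in untreated livers. Whether the sinusoidal and general lists differ was not tested.

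No gene of larger vessels passed the test. Of 17 listed genes 7 were in the table and 0 passed, with 1 at an unadjusted p under 0.05 in limma (19.5% of all genes). This was Gja4, an arterial connexin, named after its values were seen, with 8, 13 and 7 in LV livers and 5, 2 and 5 in untreated livers (limma adjusted p = 0.191). Plvap, the protein of endothelial pore diaphragms, averaged 36.3 ± 4.04 in LV livers and 36.3 ± 2.52 in untreated livers (SD, n = 3 each; 95% interval of the log2 fold change -0.28 to 0.27). The venous receptor Ephb4 had 15, 20 and 17 in LV livers and 17, 15 and 15 in untreated livers, and the matrix protein Ltbp4 had 15, 13 and 12 in LV livers and 14, 11 and 12 in untreated livers. Of 6 listed lymphatic genes 2 were in the table: Prox1, which hepatocytes also express, had 35, 45 and 50 in LV livers and 27, 38 and 22 in untreated livers (limma adjusted p = 0.260), and Flt4, the receptor of VEGF-C, had 4, 7 and 9 in LV livers and 10, 8 and 8 in untreated livers. The lymphatic markers Pdpn, Ccl21a and Mmrn1 had no row in the table.

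A pair of adhesion molecules of activated endothelium rose. Of 17 listed activation genes 5 were in the table, and 2 were higher, against 3.76% of all genes higher. Icam1, which binds leukocyte integrins, had 48, 50 and 32 in LV livers, against 8, 8 and 6 in untreated livers (log2 fold change 2.39 ± 0.21 SE, limma adjusted p = 0.00407). Vcam1, the ligand of the integrin VLA-4, had 15, 15 and 11 in LV livers, against 4, 2 and 3 in untreated livers (1.89 ± 0.23 SE, limma adjusted p = 0.0118), and its call ended when untreated replicate 3, LV replicate 1 or LV replicate 2 was left out (adjusted p up to 0.0777). Both genes are also expressed by other cells of the liver, and the cell of origin was not measured.

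The other 3 activation genes did not pass. Selp, or P-selectin, had 7, 6 and 6 in LV livers and 5, 7 and 6 in untreated livers. Thbd, or thrombomodulin, an anticoagulant receptor, had 3, 4 and 2 in LV livers and 2, 1 and 1 in untreated livers (limma adjusted p = 0.179).

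No gene of the VEGF axis around Kdr passed the test. Of 10 listed ligands, receptors and carriers other than Kdr, 7 were in the table and 0 passed in limma. At an unadjusted p under 0.05 the count was also 0, against 19.5% of all genes. Vegfa, the main ligand, had 73, 68 and 63 in LV livers and 76, 78 and 68 in untreated livers (log2 fold change -0.12, 95% interval -0.36 to 0.12). Plcg1, a phospholipase activated by Kdr, had 23, 27 and 36 in LV livers and 39, 50 and 32 in untreated livers (limma adjusted p = 0.312).

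In the BMP and TGF-beta axis around Eng, 19 of 22 listed genes were in the table. Of these, 2 were higher, 0 lower and 17 did not pass, against 3.76% of all genes higher and 0.87% lower. Id3, a helix-loop-helix inhibitor and a classical target of BMP signalling, had 86, 90 and 100 in LV livers, against 33, 31 and 32 in untreated livers (log2 fold change 1.49 ± 0.08 SE, limma adjusted p = 0.00144). Bmpr1a, a type I BMP receptor, had 10, 9 and 9 in LV livers, against 4, 5 and 4 in untreated livers (0.96 ± 0.11 SE, limma adjusted p = 0.00974), with adjusted p values of 0.0506, 0.0559 and 0.0521 when LV replicate 1, LV replicate 2 and untreated replicate 1 were left out in turn. The LV and untreated values of both genes lay far apart relative to their spread.

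Of the 19 genes, 4 had LV values wholly above the untreated ones, against 8.65% of all genes: Id3, Bmpr1a, Smad1 and Tgfb1. The last 2 were named after their values were seen. Smad1 had 11, 9 and 10 in LV livers, against 7, 7 and 6 in untreated livers (limma adjusted p = 0.0694). Tgfb1 had 9, 11 and 9 in LV livers, against 8, 6 and 8 in untreated livers. At an unadjusted p under 0.05, 3 of the 19 were higher and 1 lower, against 19.5% of all genes. Id1, Id2 and Smad4 overlapped between groups. Id1 had 12, 12 and 6 in LV livers and 10, 4 and 18 in untreated livers, Id2 had 73, 104 and 135 in LV livers and 50, 113 and 50 in untreated livers, and Smad4, the shared signal carrier, had 9, 10 and 11 in LV livers and 10, 12 and 10 in untreated livers. Gdf2, the gene of the endoglin ligand BMP9, singled out after its values were seen, had 2, 9 and 7 in LV livers and 13, 9 and 14 in untreated livers (limma adjusted p = 0.302).

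Of 21 listed scavenger, lectin and Fc receptors other than the members, 13 were in the table and 0 passed in limma. At an unadjusted p under 0.05, 0 were higher and 2 lower, Mrc1 and the neonatal Fc receptor Fcgrt, against 19.5% of all genes in either direction. The hepatocyte receptors Asgr1 and Asgr2, which clear desialylated glycoproteins, averaged 293 ± 13.6 and 156 ± 8.50 in LV livers, against 334 ± 27.7 and 175 ± 4.04 in untreated livers (SD, n = 3 each). Lrp1, a large endocytic receptor, had 107, 154 and 171 in LV livers and 156, 150 and 107 in untreated livers.

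**Figure D4:**
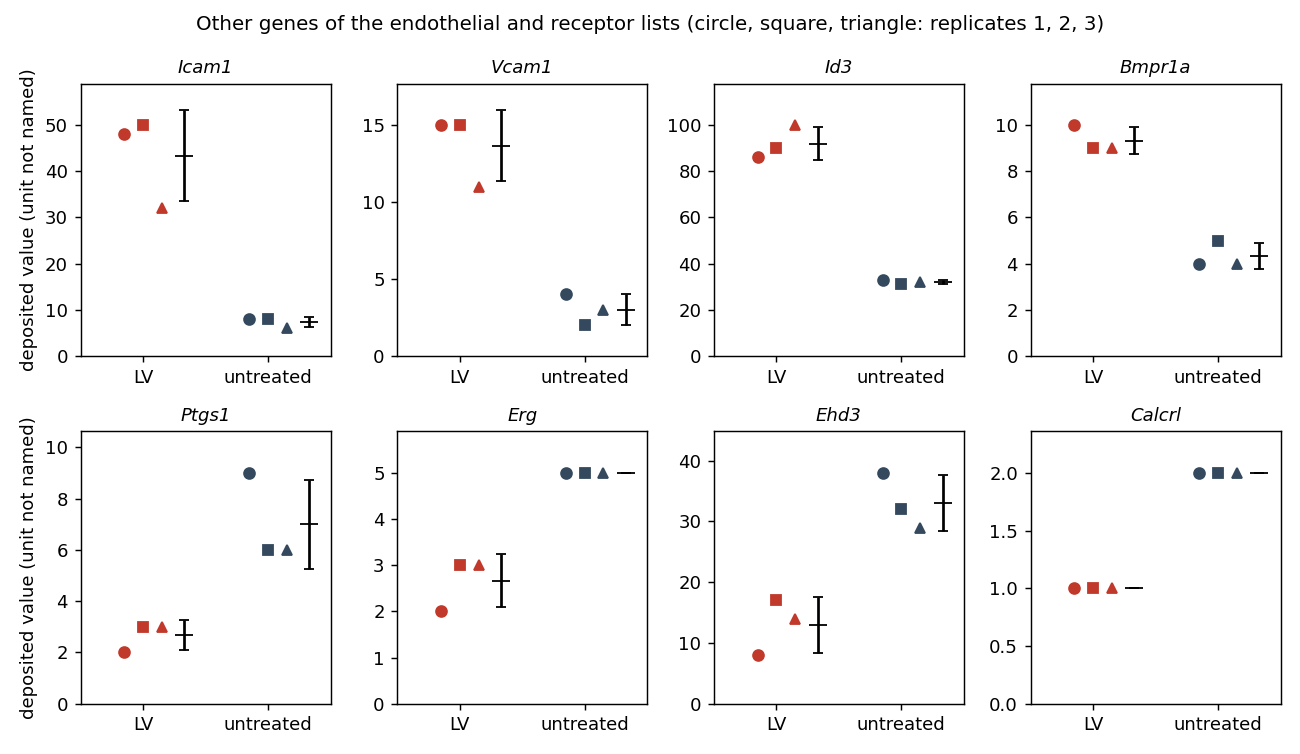
Deposited value (unit not named, axes from 0) of 8 genes of the other endothelial and receptor lists, with circles, squares and triangles for replicates 1, 2 and 3 and the mean ± SD beside each group. Icam1, Vcam1, Id3 and Bmpr1a are higher in every LV liver, and Ptgs1, Erg, Ehd3 and Calcrl are lower in every LV liver, Calcrl by 1 rounded unit.

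Markers of Kupffer cells, the macrophages that sit inside the sinusoid, were low in the same library as the endothelial markers. Of 22 listed genes 17 were in the table and 0 passed in limma. At an unadjusted p under 0.05, 1 was higher (Lyz2) and 3 lower (Vsig4, Cd163 and Slc40a1), against 19.5% of all genes in either direction. LV replicate 1 was the lowest library for 12 of the 17, against 20.1% of all genes. Their summed values ran from 328 to 558 in LV livers and from 470 to 605 in untreated livers, and no member was listed at 0. The sums were 328, 558 and 399 in LV replicates 1, 2 and 3. Medians of the list relative to the untreated means were -1.095, -0.02 and -0.57 in these libraries, so LV replicate 3 was also low. The median log2 fold change was -0.61, and 13 of the 17 were negative, against 58.1% of all genes. In 5 of the 17 all LV values lay below all untreated ones, against 11% of all genes, and in 1 above, against 8.65%. Clec4f, the defining lectin of Kupffer cells, singled out after its values were seen, had 19, 49 and 35 in LV livers, against 77, 53 and 53 in untreated livers (limma adjusted p = 0.267). C1qb, a complement component, had 30, 68 and 45 in LV livers and 76, 45 and 81 in untreated livers, Nr1h3, a sterol sensor, had 54, 60 and 57 in LV livers and 68, 53 and 61 in untreated livers, and Lyz2, a lysozyme of myeloid cells, had 86, 101 and 66 in LV livers and 64, 50 and 51 in untreated livers. The part of macrophages in the values of Stab1, Fcgr2b and Mrc1 was not tested.

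Markers of stellate cells and hepatocytes were counted in the same way, and none passed. Among all genes 19.5% passed an unadjusted p under 0.05, and LV replicate 1 was the lowest library for 20.1%. For 22 stellate cell and fibroblast genes found of 25, 0 passed in limma (4 higher, namely Acta2, Tagln, Vim and Ngfr, and 3 lower, namely Lrat, Colec10 and Colec11, at an unadjusted p under 0.05), LV replicate 1 was the lowest library for 4, and the summed values ran from 325 to 490 in LV livers and from 315 to 447 in untreated livers, with no member at 0. Of these, Sparc had 100, 114 and 46 in LV livers and 95, 55 and 97 in untreated livers, Bgn had 49, 53 and 49 in LV livers and 58, 46 and 52 in untreated livers, and Ecm1 had 50, 45 and 61 in LV livers and 44, 51 and 57 in untreated livers. For 20 hepatocyte genes, all found, 0 passed (4 higher, the fibrinogen genes Fga, Fgb and Fgg and Hnf4a, and 2 lower, Tat and Cebpa, at an unadjusted p under 0.05). LV replicate 1 was the lowest library for 6 of the 20, and the sums ran from 109033 to 126593 in LV livers and from 109952 to 143432 in untreated livers. Alb led with 50232 ± 7389 in LV livers and 61581 ± 11042 in untreated livers (SD, n = 3 each), and Ahsg and Apoa1 averaged 12372 and 9338 in LV livers and 12884 and 10744 in untreated livers.

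Haemoglobin transcripts varied between livers of both groups. The haemoglobin gene Hba-a2 had 515, 1268 and 593 in LV livers and 1652, 440 and 1266 in untreated livers, Hbb-b1 had 28, 75 and 44 in LV livers and 112, 33 and 61 in untreated livers, and Alas2, the enzyme of haem synthesis in red cells, had 15, 22 and 86 in LV livers and 35, 78 and 25 in untreated livers. The part of blood content in the marker values was not tested. Of 17 listed lymphocyte and general leukocyte genes 2 were in the table, Itgb2 with 6, 8 and 5 in LV livers and 4, 2 and 3 in untreated livers (limma adjusted p = 0.125) and Ptprc with 2, 3 and 2 in LV livers and 2, 2 and 1 in untreated livers; the bile duct list of 6 had 1, Spp1, with 31, 30 and 20 in LV livers and 25, 18 and 35 in untreated livers. None of the 13 neutrophil and monocyte genes, and none of the listed platelet and B cell genes, was among the genes of the table, so those sources of Pecam1 and Fcgr2b could not be followed.

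**Figure D5:**
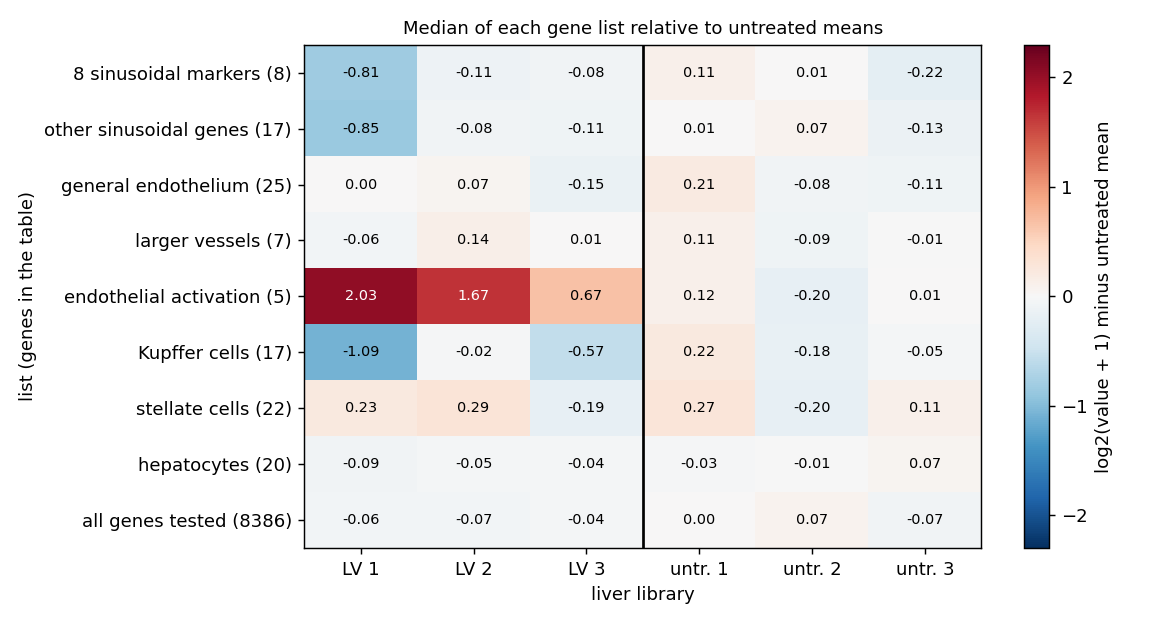
Median over each gene list of log2(value + 1) minus the untreated mean, in each library, with LV libraries left of the line; numbers in brackets give the genes in the table. In LV replicate 1 the 8 sinusoidal markers lie at -0.81 and the other sinusoidal genes at -0.85, against 0.00 for general endothelium. The Kupffer cell genes lie lower still in that library, at -1.095. The medians of LV replicates 2 and 3 for both sinusoidal lists lie between -0.11 and -0.08, and the 8 markers lie at -0.22 in untreated replicate 3.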

How the data were processed

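RNA sequencing values of 6 whole-liver samples, 3 LV and 3 untreated, came from 1 deposited table. The samples are called livers here, though the labels do not say whether each is a separate animal. Libraries were made with an Illumina TruSeq kit, per the labels' protocols, and the submitters' processing notes name build mm9; the aligner, annotation, counting and the choice of the listed genes are not stated in any source at hand. The deposited values were handled as a score, since they seem to be depth- and length-scaled expression values that the authors rounded to whole numbers, a reading taken from the values (variance over mean among replicates 0.246 in LV and 0.226 in untreated livers for genes with a mean of 2 to 5, where counted reads give at least 1). Depth is therefore unknown, and no counting interval is given.

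Columns were matched to samples by their descriptions. A gene was kept if 3 or more libraries had a value of 1 or more (8386 of 8390). The group effect on log2(value + 1) was estimated with limma 3.58.1 (R 4.3.3), using an intensity trend and no covariate; p-values were two-sided and adjusted by Benjamini-Hochberg over the genes tested. The fit was tested on simulated data. The 8 members, the 15 other gene lists (252 genes, of which 146 were in the table) and the tests were chosen with earlier results of these data known; some genes stand in more than 1 list, and a gene absent from the table may be low or left out. Named were the members; up to 6 called genes and up to 3 with the highest mean in each list; and the 5 closest profiles. Some genes of this rule are not reported here. Alternatives comprised leaving out libraries, a replicate block, another pseudocount, other filters, scalings, no variance trend and a stricter threshold. For samples with the same replicate number, the correlations of their deviations from the group means were 0.28, -0.47 and -0.34. For LV replicate 3 and untreated replicate 2 the correlation was 0.61. The deviations of each group sum to 0 over 3 samples, so that shared pattern also bears on the other correlations. The check therefore cannot tell whether samples with the same number shared a batch. The labels give no pairing, and the numbers were not treated as pairs in the main fit. Promoter sequences are from RefSeq (GRCm38.p6), and no coordinates of the deposited build were used.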

Additional observations from a re-analysis of the deposited data

How the results depend on the processing

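Over the 16 alternative settings, 0 of the 8 markers passed the limma test in each, as in the fit described above. The signs of Clec4g, Lyve1, Stab2, Kdr, Fcgr2b and Eng held wherever the gene was tested. With single libraries left out, the log2 fold change of Stab1 ran from -0.184 (without untreated replicate 3) to 0.0402 (without untreated replicate 1), with 0.0115 without LV replicate 1. That of Pecam1 ran from -0.0161 (without untreated replicate 3) to 0.227 (without untreated replicate 1), with -0.00737 without LV replicate 2. Among all genes the 388 calls became 156 with the replicate block, 175 at an adjusted p under 0.01, and 129 to 429 with single libraries left out. With the replicate block, the limma adjusted p was 0.197 for Ptgs1, 0.151 for Erg, 0.0763 for Vcam1 and 0.0935 for Bmpr1a, so these calls ended. Icam1, Id3 and Calcrl kept their calls. Whether samples with the same number shared a batch is not known. Without LV replicate 3 and untreated replicate 2 together, the calls of Ptgs1 and Erg ended (adjusted p = 0.167 for both), and with a pseudocount of 0.1 that of Erg (0.0565). Of the 17 other sinusoidal genes, 2 were called lower with scaling to equal totals and 2 with median-of-ratios scaling, in place of 1 in the main fit. With the replicate block 0 of the 17 were called lower. Lyve1 fell outside the filter on a mean of 5 or more. Rounding limits what can be seen at low values, and the unknown depth prevents any detection limit.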
